A study of Mus musculus with 458 samples.

Results

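Cycling haematopoietic stem cells (HSCs) were set apart from non-cycling HSCs of the same mouse by counting 12 transcripts of the G2 and M phases in each single cell. A cell was called cycling when at least 3 of Mki67, Top2a, Ccnb1, Ccnb2, Cdk1, Ccna2, Aurkb, Plk1, Tpx2, Nusap1, Birc5 and Ube2c reached 1 RPKM (reads per kilobase of transcript, normalised for the depth of the cell), and non-cycling when 0 or 1 did. By this rule 132 of 458 cells were cycling and 198 were non-cycling, and the 128 cells with 2 markers were left out of both classes. The classes were selected on the measured levels of these 12 genes, so their levels are given as a description and were not tested.

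All cells were index sorted from marrow of 6 transplanted C57BL/6 mice. The gate for donor-derived HSCs was LSK CD150+CD48-CD45.2+. By the series' design each mouse had received a single Vwf+ HSC and was followed for 16 weeks. If so, its cells are the progeny of 1 cell, and a difference between mice may be one between clones; the files hold no check of this. The recipients were 2 with multilineage output (MUL, status Balanced), 2 with platelet, erythroid and myeloid output (PEM, status P_E_M_biased) and 2 with platelet output (PLT, status Plt_biased). They gave 78 and 85 cells (MUL 1 and MUL 2), 93 and 25 cells (PEM 1 and PEM 2) and 93 and 84 cells (PLT 1 and PLT 2). The prefix of the mouse label is taken here as the experiment. On this reading both MUL mice came from 1 experiment and each other mouse from its own. Reconstitution type and experiment then cannot be told apart across types. Cycling and non-cycling cells share their mouse, which removes that difference from the comparison within mice.

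HSCs of adult marrow are mostly quiescent and divide rarely. On entry into the cycle, E2F factors switch on the genes of DNA replication in G1 and S phase. The genes of mitosis follow in G2, driven by the MuvB complex with B-Myb and FoxM1, which acts through the cell cycle homology region (CHR, TTTGAA), and by NF-Y, which binds the CCAAT box. In resting cells the DREAM complex keeps the same genes silent through the CHR.

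The 12 marker genes encode the parts of a dividing cell. Mki67 coats mitotic chromosomes, Top2a untangles DNA, Cdk1 with its cyclins Ccna2, Ccnb1 and Ccnb2 starts mitosis, and Aurkb, Birc5, Plk1, Tpx2 and Nusap1 build and attach the spindle. Ube2c loads ubiquitin on the cyclins for their destruction. The 150 bases upstream of the start are printed for 5 of these genes and, for comparison, for Cdca8 and Tk1, the first a mitosis gene and the second an S-phase gene that were outside the rule. They are chosen examples and show where the G2 and M elements stand, not how often they occur. Each CHR, CCAAT box and E2F motif, on either strand, is in capitals (RefSeq, GRCm38.p6, 5′ to 3′ along the gene).
Mki67 (chr7:135716380-135716529, minus strand): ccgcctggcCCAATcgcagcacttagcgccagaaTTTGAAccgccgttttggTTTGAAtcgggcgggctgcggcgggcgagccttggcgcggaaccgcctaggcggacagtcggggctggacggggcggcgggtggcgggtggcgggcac
Top2a (chr11:99024190-99024339, minus strand): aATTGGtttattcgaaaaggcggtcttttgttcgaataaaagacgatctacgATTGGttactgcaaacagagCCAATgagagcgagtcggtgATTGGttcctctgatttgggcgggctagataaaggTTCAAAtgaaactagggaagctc
Cdk1 (chr10:69352913-69353062, minus strand): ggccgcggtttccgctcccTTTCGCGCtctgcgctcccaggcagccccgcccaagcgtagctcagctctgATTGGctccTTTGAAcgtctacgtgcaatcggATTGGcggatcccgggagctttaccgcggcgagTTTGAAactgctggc
Ube2c (chr2:164769779-164769928, plus strand): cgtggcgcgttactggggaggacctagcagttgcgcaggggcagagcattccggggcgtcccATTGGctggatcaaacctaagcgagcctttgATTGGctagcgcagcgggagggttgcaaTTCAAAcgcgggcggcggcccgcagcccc
Ccnb2 (chr9:70421555-70421704, minus strand): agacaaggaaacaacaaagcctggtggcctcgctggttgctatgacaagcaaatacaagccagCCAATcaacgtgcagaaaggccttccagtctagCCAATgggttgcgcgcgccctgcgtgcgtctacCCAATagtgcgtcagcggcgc
Cdca8 (chr4:124936918-124937067, minus strand): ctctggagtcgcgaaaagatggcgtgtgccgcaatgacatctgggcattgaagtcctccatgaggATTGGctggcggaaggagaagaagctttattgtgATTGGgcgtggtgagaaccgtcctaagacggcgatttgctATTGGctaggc
Tk1 (chr11:117826015-117826164, minus strand): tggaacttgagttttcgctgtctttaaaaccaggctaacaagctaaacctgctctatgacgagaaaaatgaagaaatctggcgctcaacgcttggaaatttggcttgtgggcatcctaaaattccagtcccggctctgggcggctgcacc

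In these printed stretches Mki67 and Cdk1 each held 2 CHR motifs and Top2a and Ube2c 1. The Top2a stretch held 4 CCAAT boxes and those of Ccnb2 and Cdca8 held 3, with no CHR, while that of Tk1 held none of the motifs. Ccnb2 and Cdca8 did have a CHR in the wider window described next. The stretches of Birc5 and Nusap1, which are not printed, held none of the motifs. Over the window from 250 bases before to 50 after the start, promoters were found for 9 of the 12 marker genes. The CHR was in 6 of these 9 promoters (66.7%) and the CCAAT box in 7 (77.8%). Of the genes called higher in cycling cells below, leaving out histones, 53 of 69 had a promoter in the table, 59 promoters in all. Of those 59, 28 (47.5%) held the CHR and 40 (67.8%) the CCAAT box. Among the 9690 promoters of all tested genes the shares were 12.04% and 38.4%, and among all 32851 promoters 17.9% and 37.4%. The E2F motif searched (TTTCGCGC or TTTGGCGC) was in 1 of the 59 promoters and in 1.69% of those of all tested genes. A match is a run of letters and no measured binding.

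The markers did not weigh equally in the rule. Ube2c reached 1 RPKM in 353 of 458 cells (77.1%), among them 60.1% of the non-cycling cells, with a median of 3.002 RPKM where it did. Birc5 reached it in 42.1% of cells, at a median of 1.78 RPKM. The other markers were rarer and, where present, mostly much higher. Mki67 was at 1 RPKM or more in 44.7% of cycling and 0.505% of non-cycling cells, with a median of 49.5 RPKM where present. Top2a was present in 68.2% against 1.52% of cells, Cdk1 in 59.1% against 3.03%, Ccnb1 in 34.8% against 0.505%, and Plk1 in 12.9% of cycling and 0 non-cycling cells. Tpx2, at a median of 3.55 RPKM where present, was the third marker often found at low level.

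The cycling class is therefore described in 2 parts, cut at 5 markers. Of its 132 cells, 71 had 3 or 4 markers and 61 had 5 to 12. The cut lies on the same marker count that set the class, and cells were found at every count from 3 to 12. At the edge of the rule, 38 of the 54 cells with 3 markers and 68 of the 128 cells with 2 markers had Ube2c and Birc5 among them. The summed level of the 12 genes had a median of 4.13 RPKM in cells with 1 marker, 6.27 with 2, 25.99 with 3, 148 with 4 and 494 with 5. All 61 cells with 5 or more markers had at least 1 of Mki67, Top2a, Ccnb1 and Cdk1, and 28 had all 4. Of the 71 cells with 3 or 4 markers, 49 had at least 1 and none had all 4, and Mki67 was present in 11.3% of them against 83.6% of the cells above. The label of a cycling cell thus rests on few of its defining markers in the cells with 3 or 4.

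**Figure D1:**
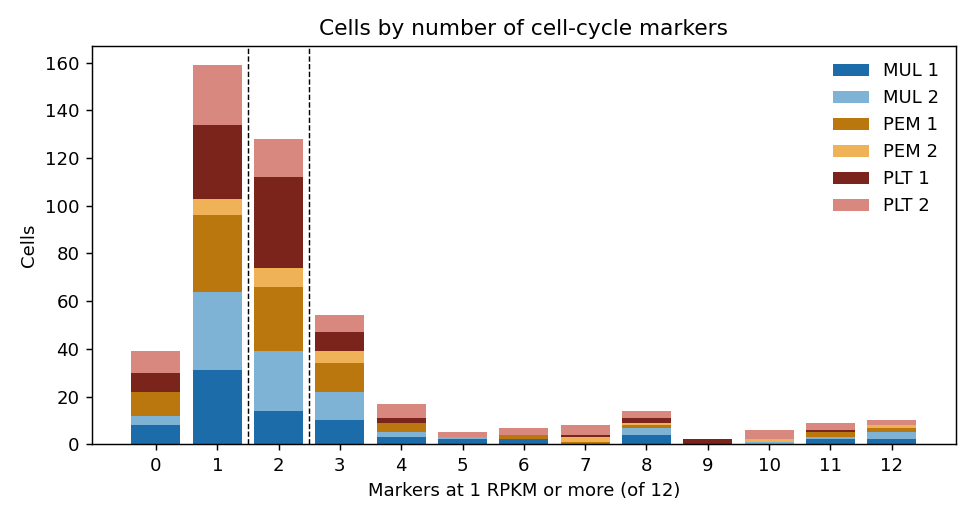
Number of cells (vertical axis) by the number of the 12 markers at 1 RPKM or more (horizontal axis), stacked by mouse. The dashed lines mark off the 128 cells with 2 markers, and the 61 cells with 5 or more form a long, low tail.

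The share of cycling cells differed among mice more than among reconstitution types. PLT 1 had the lowest share, 16 of 93 cells (17.2%, exact Clopper-Pearson 95% interval 10.2 to 26.4%), and PLT 2 the highest, 34 of 84 (40.5%, 29.9 to 51.7%). These are the mice of 1 type, and their intervals do not overlap. Between them lay MUL 1 with 32.1% (21.9 to 43.6%), MUL 2 with 27.1% (18.0 to 37.8%), PEM 1 with 25.8% (17.3 to 35.9%) and PEM 2 with 10 of 25 cells (40%, 21.1 to 61.3%). The mean share was 29.6% ± 3.53 for MUL, 32.9% ± 10.04 for PEM and 28.8% ± 16.5 for PLT (SD, n = 2 mice each), so the types differed by less than the mice within PEM or PLT. With 2 mice a type, an exact permutation test cannot go below p = 0.0667, and none was run. The intervals cover counting error only.

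Cells with 5 or more markers gave a similar order of mice. They were 6.45% of cells in PLT 1, 8.60% in PEM 1, 10.6% in MUL 2, 15.4% in MUL 1, 20.0% in PEM 2 and 25% in PLT 2. The cells of each mouse carry the labels P1 and P2, taken here as 2 plates. In PLT 2 the plates gave 41.9% and 39.02% cycling cells, and in PLT 1 14.9% and 19.6%. Both plates of PLT 2 thus lay above both of PLT 1. Plates are labelled within each mouse, so the mice were not compared within a plate. In PEM 2 the plates gave 8 of 14 (57.1%) and 2 of 11 cells (18.2%).

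**Figure D2:**
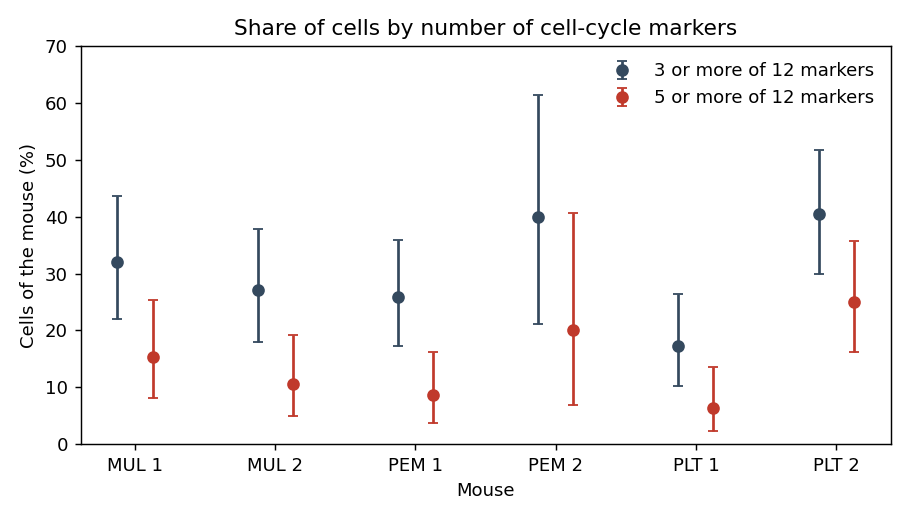
Percent of the cells of each mouse (vertical axis) with 3 or more markers (dark) and with 5 or more (red), with exact 95% intervals over cells. PLT 1 lies lowest and PLT 2 highest on both counts, while the MUL mice lie close together.

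Cycling cells contained more detected genes and fewer reads than non-cycling cells of the same mouse. The median number of detected genes was higher by 700 ± 142 (SD, n = 6 mice), in 6 of 6 mice (exact two-sided sign-flip permutation test, p = 0.03125, the smallest that 6 mice allow, adjusted over 3 measures p = 0.046875). Median mapped reads were lower in 6 of 6 mice, by a mean of 1.87 M reads (M, 1000000 reads) that rests on PEM 2 (p = 0.03125, adjusted p = 0.046875, same exact test). The difference was -8.28 M reads in PEM 2 and -0.59 M on average over the other 5 mice. The mitochondrial percent of reads differed by -0.58 ± 0.556 percentage points, and was higher in 1 of 6 mice (p = 0.0625, same exact test). Over all cells the median was 4.90 M mapped reads (1.298 to 17.3) and 2506 detected genes. A rule that counts detected markers can draw in cells with more detected genes, so the counts over all genes are also given for cells matched on that number, for all cycling cells and for those with 5 or more markers.

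For every other gene, the mean RPKM of cycling and of non-cycling cells was taken in each mouse and the pairs were compared over 6 mice with limma, on the scale log2(mean RPKM + 1), with the mouse as a block. This scale understates the change of genes near 0. Of 10214 genes tested, 79 rose (0.773%) and 2 fell (0.0196%) in cycling cells at a Benjamini-Hochberg adjusted p under 0.05. All 81 moved one way in at least 5 mice and none the opposite way in any. The median difference over all tested genes was 0.05. Leaving out MUL 1 left 21 higher genes, PLT 2 28, PEM 1 35, MUL 2 36, PLT 1 56 and PEM 2 65. The direction of the 81 could not change in these fits, since none moved the opposite way in any mouse. Of the 40 called genes named here, 15 passed without each mouse in turn: Cdca8, Neil3, Pbk, Rrm2, Tk1, Kif22, Cdca3, Ckap2l, Esco2, Nuf2, H2afz, Hmgn2, Stmn1, Asf1b and Tubb5. The other 25 missed the threshold without at least 1 mouse. Of the 79, 68 belong to a list of cell-cycle genes, and 10 of these are histones. With each cycling cell matched to a non-cycling cell of its mouse by detected genes, 62 rose and 1 fell, and 58 of the 81 calls were among these. A gene silent in non-cycling cells passed the filter on low levels only through the cycling cells, so list counts and medians describe the genes that passed and support no direction. The same limit covers single genes near 0 in non-cycling cells, such as Cdca8, Neil3, Kif22 and Cdca3. Their p-values and separate ranges are given as a description.

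Mitosis genes outside the rule made the largest group. Of 59 listed, 55 were tested, 27 rose (49.1%, against 0.773% of all tested genes) and 0 fell, with a median log2 difference of 3.29. Cdca8 (borealin; chr4:124918465-124939311, minus strand, mm10), the partner of Aurkb and Birc5 in the chromosomal passenger complex, ran from 90.6 to 181 RPKM over the 6 mice in cycling cells, with a median of 110, and from 0 to 0.109 in non-cycling cells, with a median of 0.0549. The groups did not overlap, as for 130 of the 10214 tested genes on the higher side (1.27%), and the log2 difference was 6.85 ± 0.45 (SE, limma adjusted p = 0.000515). Cdca8 passed the filter only through its cycling cells, so these values describe it and support no direction. It was at 1 RPKM or more in 38.3% of cycling and 0.427% of non-cycling cells, as means over mice. Its high mean thus came from a minority of cycling cells.

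Other mitosis genes also had much higher mean levels in cycling cells. Pbk, a mitotic kinase, had medians over mice of 173 RPKM in cycling and 0.231 RPKM in non-cycling cells (log2 difference 6.23). Kif22, a chromosome-carrying kinesin, had medians of 75.9 and 0.0826 RPKM (5.92). Cdca3, a trigger of mitotic entry, and Ckap2l, a spindle protein, differed by 5.70 and 5.46 on the log2 scale. These 4 were named for their large called changes, and their ranges over mice lay apart.

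The products of kinetochore genes tie chromosomes to the spindle. Of 24 listed and tested, 7 rose (29.2%), 0 fell and 17 did not pass (median 2.61). Nuf2, of the outer kinetochore, had a median of 41.5 RPKM in cycling and 0.368 RPKM in non-cycling cells (log2 difference 4.84, adjusted p = 0.00195, limma). Its partner Spc25, counted on the mitosis list, was less clean, since it ran up to 60.4 RPKM in non-cycling cells of 1 mouse, yet remained lower there than the 88.1 RPKM of the lowest cycling value. Ska1, Cenpm and Cenpk, which also belong to the kinetochore, rose by 3.74, 4.43 and 4.21. Among the 14 condensin and cohesin genes tested 4 rose, namely the condensin subunits Ncapg (4.03), Ncaph (4.31) and Ncapg2 (3.35) and Esco2 (5.21), the acetyltransferase that locks cohesin on replicated DNA.

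Genes of DNA replication were called less often than those of mitosis. Of 62 listed and tested, 7 rose (11.3%, against 0.773% of all tested genes) and 0 fell (median 1.78), and 36 were higher in all 6 mice. Mcm7, a subunit of the MCM helicase that unwinds DNA, ran from 49.1 to 136 RPKM in cycling cells (median 124) and from 8.10 to 52.7 RPKM in non-cycling cells (median 30.3). Its log2 difference was 1.72 ± 0.32 (SE, limma adjusted p = 0.0464). The other MCM subunits were higher in 6 of 6 mice too, without passing the threshold: Mcm2 by 2.59 (adjusted p = 0.135), Mcm3 by 1.66, Mcm4 by 2.32, Mcm5 by 1.82 (adjusted p = 0.0781) and Mcm6 by 0.72. Pcna, the sliding clamp of the polymerases, differed by 1.62 (adjusted p = 0.105). Fen1, which trims Okazaki fragments, Rfc4, which loads the clamp, Tipin, which guards the fork, and the repair factor Rad51ap1 rose by 2.29, 1.80, 2.19 and 4.28. Mcm7 missed the threshold without any 1 of the mice (limma adjusted p from 0.0506 to 0.181).

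Enzymes of nucleotide synthesis in general, those that make deoxynucleotides among them, gave 4 calls of 28 (14.3%, median 0.77). Rrm2, the S-phase subunit of ribonucleotide reductase (chr12:24708241-24714146, plus strand, mm10), ranged from 90.1 to 574 RPKM in cycling cells (median 203) and from 0.0332 to 9.90 RPKM in non-cycling cells (median 3.34). The groups did not overlap, and the log2 difference was 6.02 ± 0.57 (SE, limma adjusted p = 0.00167). Thymidine kinase, Tk1, was similar with 5.93. The partner subunit Rrm1 and the thymidylate synthase Tyms rose by 1.75 and 2.35, and both were more widely present: Tyms was at 1 RPKM or more in 85.9% of cycling and 58.1% of non-cycling cells.

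Of 26 G1 regulators 2 rose (7.69%, against 0.773% of all tested genes) and 0 fell, and most were without a call. Ccne2, a cyclin of the G1 to S step, rose by 3.62 (adjusted p = 0.0435, limma). The other was the phosphatase Cdkn3, which acts on cyclin-dependent kinases. It ranged from 4.85 to 119 RPKM over the mice in cycling cells, was at most 0.0930 RPKM in non-cycling cells and rose by 5.30. Ccne1, the relative of Ccne2, was 2.63 higher (limma adjusted p = 0.301), and in PEM 2 its difference reached 7.06. The D cyclins, which couple growth signals to the cycle, pointed in different directions without a call: Ccnd1 by -0.68, Ccnd2 by -0.65 and Ccnd3 by 0.98. Their kinases Cdk4 and Cdk6 differed by 0.65 and 1.69, Myc by -0.67 and E2f2 by 2.37, all uncalled.

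Genes of chromatin and microtubules ranged from abundant in both classes to rare in non-cycling cells. Of 25 chromatin genes tested, 3 rose (12%) and 0 fell. H2afz, a histone variant (chr3:137864487-137866922, plus strand, mm10), averaged 3367 ± 991 RPKM in cycling and 1583 ± 458 RPKM in non-cycling cells (SD, n = 6 mice). Its log2 difference was 1.09 ± 0.08 (SE, limma adjusted p = 0.000695), higher in 6 of 6 mice although the ranges overlap. Hmgn2, which binds nucleosomes, and the histone chaperone Asf1b rose by 1.25 and 4.39, from medians of 1528 and 11.6 RPKM in non-cycling cells. Hmgb2, which bends DNA, differed by 3.23 with no overlap, without passing (adjusted p = 0.0887). Among 9 tubulin genes tested 3 rose, namely Tubb5 (1.03), Tuba1b (1.53) and Tuba8 (2.98). Stmn1, which takes microtubules apart and is counted with the tubulins in the plot of list medians, rose by 1.56, from 301 ± 95.1 to 880 ± 276 RPKM (SD, n = 6 mice).

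The calls of histone genes are uncertain, because near-identical copies can share reads. Of 68 replication-dependent histone genes 40 were tested and 10 rose (25% of those tested). Hist1h2ag, Hist1h2ad, Hist1h2ah and Hist1h2an, near-identical H2A genes on chromosome 13, differed by 4.03, 3.91, 3.82 and 3.78. Hist1h2ag ran from 49.8 to 190 RPKM in cycling and from 1.82 to 11.8 RPKM in non-cycling cells. How reads that fit several copies were counted is not given in the sources used here. Tubulins and Eef1a1 have close copies too.

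**Figure D3:**
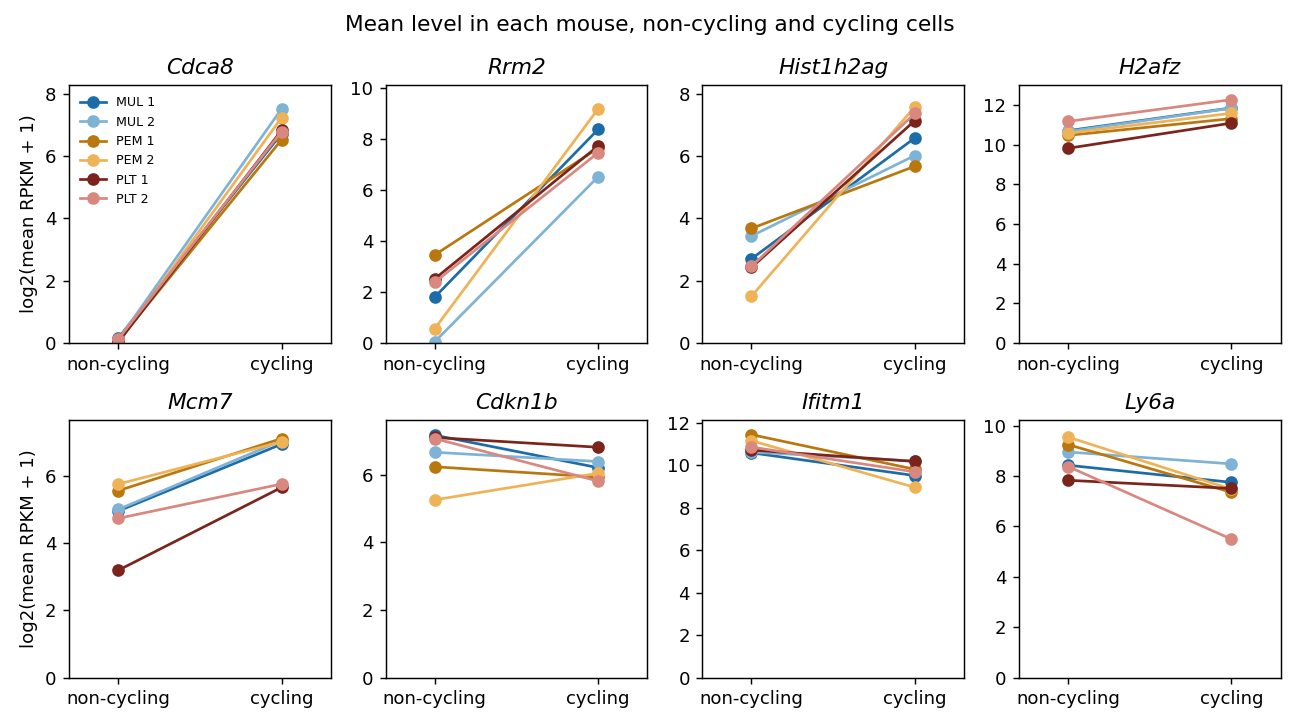
Mean level on the scale log2(RPKM + 1) (vertical axis) in non-cycling and cycling cells of each mouse, with 1 line a mouse, for 8 genes. Cdca8, Rrm2 and Hist1h2ag climb in all 6 mice, H2afz and Mcm7 climb less, Ifitm1 and Ly6a descend, and Cdkn1b crosses.

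Of the 79, 11 were in none of the cell-cycle lists. Neil3, a DNA glycosylase, differed by 6.28 with no overlap (medians of 70.5 and 0.0487 RPKM). Rhd, a red-cell antigen, rose by 5.29 (adjusted p = 0.0451, limma), yet it was absent in cycling cells of PEM 1 and reached 1 RPKM in 6.30% of cycling cells, as a mean over mice.

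Only 2 genes fell. Ifitm1 (chr7:140967221-140969825, plus strand, mm10), an interferon-induced membrane protein that blocks virus entry and is high in HSCs, ran from 499 to 1180 RPKM in cycling cells (median 866) and from 1547 to 2803 RPKM in non-cycling cells (median 1779). The groups did not overlap, as for 14 of the tested genes on the lower side (0.137%), and the log2 difference was -1.17 ± 0.21 (SE, limma adjusted p = 0.0451). The elongation factor Eef1a1 fell from 2977 ± 353 to 2200.5 ± 138 RPKM (SD, n = 6 mice), a log2 difference of -0.43 ± 0.08 (SE, limma adjusted p = 0.0435). Both were lower in 6 of 6 mice. In cells matched on detected genes both missed the threshold at nearly the same difference (-1.18, adjusted p = 0.0988, and -0.43, adjusted p = 0.0893, limma). Eef1a1 also missed it without any 1 mouse (adjusted p from 0.0613 to 0.188), and Ifitm1 without any 1 mouse other than PEM 2 (up to 0.155).

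Genes of the interferon response lay mostly on the low side of cycling cells. Of 26 listed, 23 were tested, 0 rose and 1 fell (Ifitm1), with 18 negative and a median of -0.63 against 0.05 for all genes. Ifitm3, the neighbour of Ifitm1 with the same function, differed by -0.71 (adjusted p = 0.0984), Ifit1, which binds viral RNA, by -2.45 (adjusted p = 0.128) and the guanylate-binding protein Gbp2 by -1.23 (adjusted p = 0.135), each lower in 6 of 6 mice. H2-Aa, an MHC class II chain, differed by -1.13 (adjusted p = 0.0515). Tmem141, the protease Ctsl, Mettl8 and Crtc2 were also among the lower genes with the smallest p, at -3.47, -2.70, -3.14 and -2.39, uncalled. Crtc2 reached 1 RPKM in 8.93% of non-cycling cells, as a mean over mice.

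HSC identity genes other than Ifitm1, which is also on that list, had no call. Of 33 tested 0 rose and 1 fell, 22 were negative and 11 positive, and the median was -0.33. In all 6 mice, 5 were lower and 3 higher. Among the higher was Tek, which ran from 10.7 to 29.5 RPKM in cycling and from 0.0021 to 10.5 RPKM in non-cycling cells, uncalled. Ly6a (Sca-1, part of the sorting gate) was lower in 6 of 6 mice, with medians of 179 and 418 RPKM and a log2 difference of -1.39 (adjusted p = 0.150). Procr, the HSC marker EPCR, was lower in 6 of 6 too (-0.87, adjusted p = 0.407). The transcription factors Hlf (-0.78) and Mecom (-0.47), the surface proteins Slamf1 (-0.86), Kit (-0.33) and Cd34 (-0.76), and Gata2 (0.01) did not pass the test. Vwf, whose expression marked the transplanted cells, differed by 0.29 (adjusted p = 0.906), with medians of 17.5 and 19.8 RPKM. Mmrn1, a megakaryocyte and HSC gene, was listed at 0 in both classes of the 4 MUL and PEM mice and missed the filter. In PLT 1 and PLT 2 it was at 81.9 and 60.8 RPKM in cycling and 98.1 and 110 RPKM in non-cycling cells.

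Inhibitors of the cycle were no lower by any call. Of 24 tested genes of quiescence and CDK inhibition, 0 rose and 0 fell (limma), and 15 were negative. Cdkn1b (p27) had medians of 69.2 RPKM in cycling and 117 RPKM in non-cycling cells, and was lower in 5 of 6 mice (-0.38, adjusted p = 0.735). Cdkn1c (p57), an HSC quiescence gene, reached 1 RPKM in about as many cells of each class (7.47% and 6.58%) and differed by -0.08. Cdkn1a (p21) missed the filter. Txnip and Btg2, which restrain proliferation, differed by -0.49 and 2.07, uncalled. Ribosomal protein genes had 0 calls among 76, with 68 negative and a median of -0.29, such as Rps7 (-0.53), Rpl32 (-0.51), Rps4x (-0.44) and Rps14 (-0.59). When levels were averaged as log2 values of single cells instead, the median of the ribosomal list was 0.03 and that of the HSC list 0.17. Their sign thus rests on the averaging. The median of all tested genes was 0.23 there, and both lists lay below it, as they lay below all genes in the main fit. The median of the interferon list was -0.13 on these log2 means.

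With the cells of all mice counted together, megakaryocyte and mature erythroid markers were found in more of the cycling than of the non-cycling cells. At least 3 of 8 megakaryocyte markers were present in 28 of 132 cycling and 11 of 198 non-cycling cells, and the summed mean level ran from 128 to 2467 RPKM over mice in cycling and from 37.2 to 518 RPKM in non-cycling cells. Pf4, a platelet chemokine, was higher in 6 of 6 mice (3.05, adjusted p = 0.0781), as were the platelet receptor subunit Gp1bb (2.48, adjusted p = 0.321) and, in 5 of 6, Itga2b (1.44, adjusted p = 0.498). Of 21 megakaryocyte and platelet genes tested 0 were called, with 15 positive, 6 negative and a median of 0.35. With 5 or more markers 10 were positive, 11 negative and 1 called higher, with a median of -0.12. Cycling cells also had more detected genes, and the part of this in the marker counts was not tested. Gata1, the erythroid and megakaryocyte master factor, had medians of 31.5 and 2.33 RPKM (3.09, adjusted p = 0.0781). Of 17 erythroid progenitor genes 1 rose (Rhd), with Klf1 at 3.65 and Aqp1 at 2.64, both uncalled. At least 3 of 9 mature erythroid markers were in 10 of 132 cycling and 4 of 198 non-cycling cells (25.5 to 1093 and 8.64 to 295 RPKM over mice). This did not hold in PEM 1, with 0 of 24 cycling and 1 of 42 non-cycling cells (25.5 and 177 RPKM). Nor did it hold in PLT 2, with 3 of 34 cells in each class (90.7 and 295 RPKM). Hba-a2 and Hbb-b2 were below 1 RPKM in all cycling and non-cycling cells. At least 3 of 11 neutrophil markers were in 6 and 12 cells, with a sum of 16992 RPKM in cycling cells of PLT 1, and Elane and Mpo were below 1 RPKM in all. Cxcr2 reached 1 RPKM in all 132 cycling and 198 non-cycling cells, so it counted toward the 3 in every cell. Macrophage and monocyte markers reached 3 in 3 cycling and 4 non-cycling cells, T and NK cell markers in 5 and 5, endothelial and stromal markers in 4 and 1, and B cell and mast cell markers in 0 of either. Single members of these lists were widespread: Lyz2 in 110 and 148 cells, Cd8b1 in 85 and 134, and Lepr in 125 and 183. The 9 HSC markers gave at least 3 in 94 of 132 cycling and 139 of 198 non-cycling cells. Their summed mean level was lower in cycling cells of 6 of 6 mice, with medians of 746 and 1118 RPKM, and all 9 genes had negative differences. Without cells that held mature blood cell markers, 45 genes rose and 1 fell, and 45 of the 81 calls were among these.

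Most calls were made in the long tail of the class. With cycling limited to the 61 cells of 5 or more markers, 137 of 9899 genes rose (1.38%) and 38 fell (0.384%). With cycling limited to the 71 cells of 3 or 4 markers, 0 of 9829 were called (0%) and 669 had an unadjusted p under 0.05 (limma). Whether the 2 parts of the class differ from each other was not tested. Cdca8 averaged 260 ± 97.2 RPKM over mice with 5 or more markers and 26.4 ± 25.6 RPKM with 3 or 4 (SD, n = 6 mice). Hist1h2ag was at 241.2 ± 109 and 10.4 ± 7.47, the latter close to 6.28 ± 3.73 in non-cycling cells. Replication genes varied in this respect. Mcm2 was at 56.6 ± 27.5 and 72.5 ± 40.3 RPKM against 19.1 ± 24.8 in non-cycling cells, and Mcm6 at 247 ± 87.7 and 258 ± 61.6 against 155 ± 55.7. Pcna was at 543 ± 65.2 and 329 ± 156 RPKM against 166 ± 118, Fen1 at 160 ± 78.1 and 63.3 ± 44.7 against 19.5 ± 9.32, and Rad51ap1 at 59.0 ± 19.5 and 10.5 ± 10.03 against 2.14 ± 5.20. Thus Mcm2 and Mcm6 had close means in both parts, and the other 3 were higher with 5 or more markers. Tk1 was at 191 ± 51.6 and 62.3 ± 30.3 against 1.77 ± 2.94.

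Summed levels of the gene lists were also followed over the number of markers. The median over mice of the mitosis list outside the rule was 636 RPKM in cells with 0 or 1 marker, 684 with 2, 883 with 3 or 4 and 6160 with 5 to 12. It was higher than with 0 or 1 in 6 of 6 mice in both of the last groups. The replication list went through 1596, 1862, 3459 and 5244 RPKM, also higher in 6 of 6 mice in both. The histone list stayed at 253, 324 and 347 RPKM and reached 1746 RPKM with 5 to 12, where every mouse was higher. The interferon list went down through 4978, 4506, 3890 and 2174 RPKM, lower in 6 of 6 mice with 3 or 4 markers and with 5 to 12. Leaving out Ifitm1 and Ifitm3, which make up most of it, it was at 1355, 1240, 1174 and 710 RPKM, lower in 5 of 6 mice and then 6 of 6. The HSC list without these 2 genes was at 2824, 3088, 2503 and 2041 RPKM, lower in 4 of 6 and then 6 of 6. The range of the interferon list with 5 to 12 markers, 1521 to 2583 RPKM, lay below its range with 0 or 1, 3868 to 7438 RPKM. Detected genes rose along the same axis, to a median per mouse between 2560 and 4074 with 5 to 12 markers, from 1846 to 2970 with 0 or 1. Their part in these sums was not tested.

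**Figure D4:**
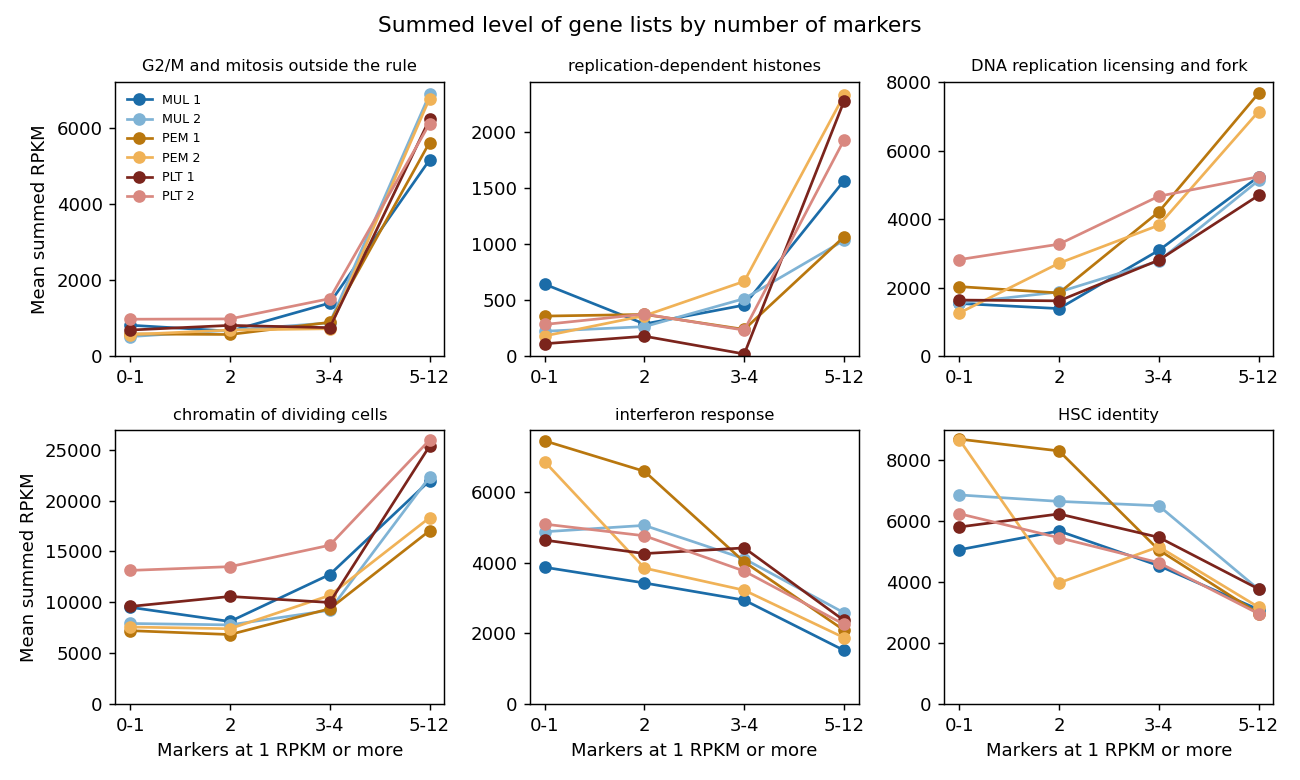
Mean summed RPKM of 6 gene lists (vertical axis) in cells grouped by the number of markers (horizontal axis), with 1 line a mouse. Mitosis and histone lists jump at 5 to 12 markers, the replication list climbs from 3 or 4 on, and the interferon list falls to 2174 RPKM at the median.

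Of the 38 genes that fell in cells of 5 or more markers, 12 were on the interferon, HSC identity or ribosomal protein lists and 26 on none of these. Of 22 interferon genes tested, 5 fell and 22 were negative (median -1.35 against -0.26 for all genes), among them Ifitm1 (-2.07), Ifitm3 (-1.15), Ifit1 (-4.09) and Gbp2 (-1.61). Ifit1 went from 46.0 ± 31.6 to 2.07 ± 3.72 RPKM (SD, n = 6 mice; limma adjusted p = 0.0441). Of 33 HSC identity genes 4 fell, among them Ly6a, from 458 ± 194 to 100 ± 100 RPKM (-2.64, adjusted p = 0.0402, limma). Of 76 ribosomal protein genes 5 fell, such as Rps7 (-0.87) and Rpl32 (-0.81). Txnip fell by 1.95 on the log2 scale. Among fixed genes, Pcna (2.03), Mcm5 (2.29), Hmgb2 (4.13) and Pf4 (3.70) passed in the other direction. With these cells matched on detected genes, 85 genes rose and 6 fell, so most of the lower calls did not hold there.

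**Figure D5:**
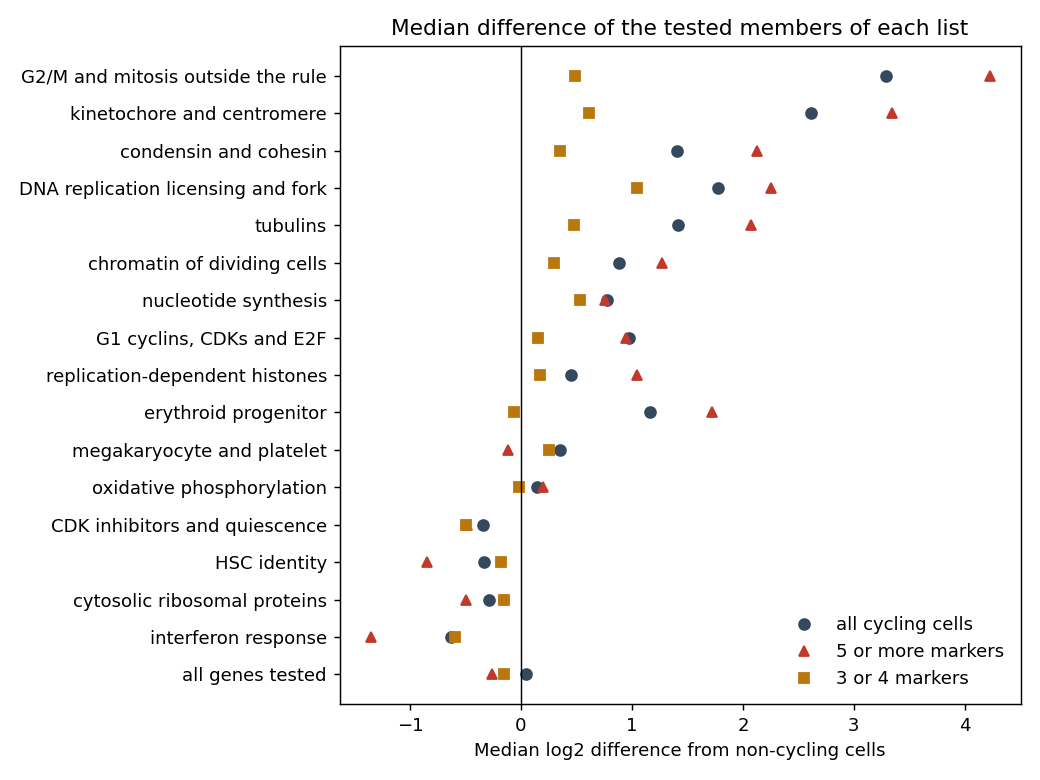
Median log2 difference from non-cycling cells (horizontal axis) of the tested members of 16 gene lists and of all genes tested, for all cycling cells (circles), those with 5 or more markers (triangles) and those with 3 or 4 (squares). Mitosis genes reach 4.22 with 5 or more markers and 0.49 with 3 or 4, while replication genes have 2.26 and 1.04. These medians are not over the same genes, since each setting was filtered by itself. With 5 or more markers 57 mitosis and 62 replication genes were tested, and with 3 or 4 markers 34 and 57.

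The difference between cycling and non-cycling cells was also compared among the reconstitution types. A limma F test over MUL, PEM and PLT, on 1 difference per mouse, called 0 of 10214 genes (lowest adjusted p = 0.932), with 335 at an unadjusted p under 0.05. On means of log2 values it called 0 as well, with 445. With 2 mice a type this says little about genes with a moderate difference between types.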

How the data were processed

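Single HSCs were index sorted, and the SMARTer Ultra Low RNA kit served for library preparation, per the labels' protocols. The submitters' processing notes name TopHat, featureCounts and mm10. Tool versions are not given in the sources used here. The deposited table holds RPKM values of 22645 genes in 458 cells, made by the authors. A deposited cell table gives each cell's mouse and status and, as whole-cell measures, its mapped-read count, its detected-gene count and its mitochondrial percent, per the file headers. No cell was filtered and no doublet caller was run on these sorted cells.

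The number of the 12 markers at 1 RPKM or more set each cell's class, as the report describes. Each cell is a sample, so cells were averaged and the mouse was the replicate. Every mouse had at least 3 cells a side. Replicate numbers follow accession order and pair no mice. The RPKM table was tested without those 12 genes, for genes whose mean over the 2 classes reached 1 RPKM in at least 3 mice. limma 3.58.1 in R 4.3.3 was fitted to log2(mean RPKM + 1) with the mouse as a block and an intensity trend, with a threshold of 0.05 after Benjamini-Hochberg adjustment. The p-values measure the spread between 6 mice. No count model was used, because reads were not recovered from RPKM. Other classes of cell, scalings, filters, averages, blocks and matched cells were tried, as were fits without each mouse. Genes of a class share cells and libraries with the markers that set it, so the comparison describes what goes with the class.

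The members and gene lists were chosen with earlier results of these data known. Named genes were the 12 markers, up to 12 genes per direction with the largest called change that all mice shared (filled to 10 by the smallest p), up to 4 per list, and a fixed set of regulators and HSC genes. Predicted genes were counted and not named. Gene positions are from GENCODE M21 on mm10, promoters from RefSeq on GRCm38.p6. The fit was tested on simulated data with changed genes of known size.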

Additional observations from a re-analysis of the deposited data

Results flagged for a closer look

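In 1 mouse of 6, a difference between cycling and non-cycling cells stood away from the other 5, by the gap to its nearest neighbour relative to the whole range. This was checked for 93 measures and found in 11, where chance gives about 1 in 20. PEM 2, with 10 cycling and 7 non-cycling cells, stood apart in 6 of the 11. Its detected genes differed by 976 (others 575 to 696) and its mapped reads by -8.28 M reads (M, 1000000 reads; others -1.23 to -0.019). Hmgb2 differed by 7.61 in PEM 2 (others 1.29 to 2.96), Ccne1 by 7.06 (0.68 to 2.62), Ccnd3 by 2.78 (-0.01 to 1.01) and Cdk4 by -0.54 (0.58 to 1.14), on the log2 scale. In the remaining 5, the mouse named was PEM 1 for Kif22 (4.08, others 5.92 to 6.87) and Crtc2 (-0.067, others -3.61 to -2.53). It was PLT 1 for Ska1 (2.08, others 3.57 to 4.40), PLT 2 for Mmrn1 (-0.85, others -0.26 to 0, where the 4 MUL and PEM mice are listed at 0 in both classes, so this gap rests on the 2 PLT mice) and MUL 1 for Tuba8 (5.81, others 1.70 to 3.09).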

How the results depend on the processing

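Against 79 higher and 2 lower genes, the counts were 59 and 1 with a pseudocount of 0.1, 83 and 3 with 10, 16 and 0 with no filter, 83 and 3 with a filter at 5 RPKM, 814 and 4 on means of log2 values, 113 and 9 with quantile-normalised profiles, 74 and 0 with median-ratio scaling, and 60 and 0 with no trend. Quantile normalization moved the median of all genes from 0.05 to -0.06. Without the replicate block of mice there were 91 and 2, and with mouse and plate as a block 137 and 13. Of other classes, 2 or more markers gave 20 and 0, non-cycling cells with 0 markers 12 and 0 (5 mice), and markers at 5 RPKM 180 and 137. Matching on mapped reads within plates gave 62 and 1, and leaving out mature-marked cells 45 and 1. Chosen after seeing the data, 3 or 4 markers gave 0 and 0, the rule without Ube2c and Birc5 176 and 109, 5 or more markers matched on detected genes 85 and 6 (137 and 38 unmatched), and cells rescaled to a common sum 77 and 3. Matching on detected genes gave 62 and 1. Leaving out 1 mouse gave 21 to 65 higher and 0 to 2 lower genes. All 81 calls, where tested, kept their sign in each of these settings except in cells with 3 or 4 markers, where 58 of 62 did. In the fits without 1 mouse the sign was fixed beforehand, since no call moved the opposite way in any mouse. The 40 called genes that are named held direction and call in 819 of 1113 evaluations under these alternatives, and missed the threshold in 294. The cause of these changes was not tested.

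The mean share of cycling cells was 30.4% over mice, and 16.0% with markers at 5 RPKM, 95.1% above 0 RPKM, 14.3% at 5 or more markers, 58.5% at 2 or more and 17.1% without Ube2c and Birc5. Detected genes differed by 1044 with 5 or more markers (exact permutation test, adjusted p = 0.0625) and by 645 to 725 without 1 mouse (5 mice cannot pass). Mapped reads differed by -2.13 M reads (M, 1000000 reads) there (adjusted p = 0.0625, same exact test) and by -2.24 to -0.59 M without 1 mouse. The mitochondrial percent differed by -0.73 on means over cells (adjusted p = 0.03125, same exact test).

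Among named genes, those that changed sign were uncalled, on the log2 scale. Gata2 (0.01) was at -0.14 after quantile normalization, -0.049 after median-ratio scaling, -0.34 with mouse and plate, -0.11 at 5 or more markers, -0.70 when these were matched, -0.41 against 0 markers, -0.29 with markers at 5 RPKM, -0.16 matched on detected genes, -0.043 without mature-marked cells, -0.27 without Ube2c and Birc5, -0.0037 rescaled, and -0.25 to 0.32 without 1 mouse (negative for 4 of 6). Cdkn1c (-0.08) was at 0.071 with a pseudocount of 0.1, 0.074 on log2 means, 0.62 at 5 or more markers, 1.73 when matched, 0.38 at 2 or more, 0.30 at 5 RPKM, 0.28 matched on mapped reads, 0.29 without Ube2c and Birc5, and -0.70 to 0.30 without 1 mouse (positive for 3 of 6). Vwf was at -0.26 with 5 or more markers, -0.12 when matched, -0.66 at 5 RPKM, -0.030 without Ube2c and Birc5 and -0.10 to 0.64 without 1 mouse (negative without MUL 2). On log2 means Slamf1 was at 0.43, Kit at 0.13 and Rps4x at 0.17. Slamf1 was at 0.11 matched on mapped reads. Mecom was at 0.017 at 2 or more markers and 0.61 without mature-marked cells. Ccnd1 was at 0.37 with mouse and plate and -1.21 to 0.0055 without 1 mouse (positive without PEM 2). Against 0 markers Tmem141 was at 0.78, Ccnd1 1.34, Ccnd2 0.17, Myc 0.14, Procr 0.050, Kit 0.023 and Cd34 1.80. With 3 or 4 markers Ccne1 was at -0.33, Txnip 0.028 and Btg2 -0.73. Cdkn1b was at 0.30 with 5 or more matched markers.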
